A study of Mus musculus with 12 samples.

Results

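Cck, Sncg, Grik1 and Fcgbp are 4 genes chosen by their normalized counts, which were much higher in telogen than in anagen hair follicle stem cells (HFSCs), the cells of the follicle bulge that stay quiescent in telogen, the resting phase of the hair cycle, and divide early in anagen, the growth phase. They were matched by symbol, 4 of the 21915 genes of the hair cycle table and 4 of the 17885 genes of the Eed iKO table. RNA from sorted HFSCs of mouse back skin had been sequenced in 12 libraries, 3 for each of 4 groups. The hair cycle table holds wild-type C57BL/6J mice at postnatal days 28 to 30 (anagen) and 50 to 52 (telogen). The Eed iKO table holds C57BL/6J mice at day 70, labelled wildtype (control) or Eed -/- (Eed iKO).

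Eed encodes a core subunit of Polycomb repressive complex 2. Eed iKO mice carried K15-CrePGR, a Cre recombinase driven by a Keratin 15 promoter active in the bulge and switched on by RU-486, together with Eed fl/fl alleles. RU-486 in ethanol (10 mg/ml, 100 µl) was applied to the shaved back once a day for 7 days, and control mice received ethanol. HFSCs were gated on EpCAM+ and Sca1- cells that were CD34+ and high in α6-integrin, with no marker of recombination in the sort. Eed mRNA had 1084, 1249 and 950 normalized counts in control and 933, 1361 and 1001 in the libraries labelled Eed iKO, which overlap, a log2 difference of -0.01 (SE 0.22, adjusted p = 0.993, limma). A value over the whole gene does not single out the floxed part of Eed, so it does not check the deletion, and the groups are taken from the labels.

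The genes encode proteins of unlike kinds. Cck encodes cholecystokinin, a peptide hormone and neuropeptide that is cut from a precursor, stored in secretory granules and read by the receptors CCKAR and CCKBR. Sncg encodes γ-synuclein, a small cytosolic protein of the synuclein family known from neurons. Grik1 encodes GluK1, a subunit of kainate receptors, ion channels opened by glutamate and built from the products of Grik1 to Grik5 with the auxiliary subunits Neto1 and Neto2. Fcgbp encodes the IgG Fc binding protein, a large mucin-associated protein secreted by mucosal epithelia.

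In the mouse genome (GRCm38, GENCODE vM21) the genes lie on 4 different chromosomes. Cck (ENSMUSG00000032532.7) spans chr9:121489824-121495694 on the minus strand, with a longest coding transcript of 799 bases. Sncg (ENSMUSG00000023064.4) spans chr14:34370274-34374789 on the minus strand, with a transcript of 852 bases. Grik1 (ENSMUSG00000022935.16) covers 394366 bases at chr16:87895900-88290265 on the minus strand, with a transcript of 3655 bases in 17 exons. Fcgbp (ENSMUSG00000047730.17) spans chr7:28071236-28120862 on the plus strand, with a transcript of 7928 bases in 20 exons. None of the 4 shares exon bases with another annotated gene.

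RefSeq promoter windows of GRCm38.p6, running from 250 bases before to 50 bases after the start site, were at hand for 3 of the genes: Cck, Sncg and Fcgbp. They are shown because genes that are high in the same libraries invite a look at what their starts share. The 30-base stretches below are centred near a run of letters found in all 3 windows on the strand of the gene, GCGTCA, written in capitals and chosen after the sequences were seen. They come from chr9:121495725-121495754 (minus strand), chr14:34374656-34374685 (minus strand) and chr7:28071148-28071177 (plus strand), and the Sncg stretch lies wholly within an annotated exon of Sncg.
Cck: tcctgctggactGCGTCAgcactgggtaaa
Sncg: aatatttcatctGCGTCAataagaggcagt
Fcgbp: ggcaccgtgtgcGCGTCAggtgacccgggg
Searched on both strands, GCGTCA occurs in 7.40% of the 32851 windows of the same length. It starts 48 bases before the Cck start site, 4 before that of Sncg and 76 before that of Fcgbp. The RefSeq start site used for Sncg lies inside the GENCODE span of the gene, unlike those of Cck and Fcgbp. The Sncg match is therefore not upstream of the gene as annotated by GENCODE. The full cyclic AMP response element TGACGTCA, in 1.79% of all windows, had no match in the 3, and neither did the AP-1 site TGANTCA (7.81%) nor the homeodomain site TAATTA (5.29%). The forkhead site TGTTTAC (3.65%) and the GATA site AGATAA (11.2%) each had 1 match, both in Cck, and the NFAT site TGGAAA (21.4%) had 1, in Sncg. E-boxes (CANNTG), present in 72.3% of all windows, had 3 matches in Cck, 1 in Sncg and 4 in Fcgbp. Matches are letters in a window and were not tested as binding sites.

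The 150 bases before the start sites of Cck (chr9:121495695-121495844, minus strand) and Fcgbp (chr7:28071086-28071235, plus strand), the genes with the largest and smallest telogen to anagen difference of the 4, show how these matches lie, with GCGTCA and E-boxes in capitals. In Fcgbp the 2 kinds of match overlap in the single run GCGTCAGGTG.
Cck: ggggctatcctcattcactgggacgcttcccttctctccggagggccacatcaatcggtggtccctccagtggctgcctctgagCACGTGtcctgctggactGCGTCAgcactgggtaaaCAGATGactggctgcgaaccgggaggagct
Fcgbp: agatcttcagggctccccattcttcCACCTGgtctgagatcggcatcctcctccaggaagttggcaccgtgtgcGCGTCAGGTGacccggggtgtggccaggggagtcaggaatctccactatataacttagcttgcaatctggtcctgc

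Across the series, the Eed iKO table rested on 33269583 to 57063586 reads per library, recovered from the deposited values. For the hair cycle libraries the depth is unknown, and their normalized totals ran from 11370984 to 13186648. All 11 HFSC markers were present in both tables. Telogen replicate 1 stood apart in its keratins, with 50461 normalized counts of Krt5 against 131957 and 155865 in the other telogen libraries. The 2 tables were normalized separately, so each was tested on its own. Libraries of a group are biological replicates per the methods, from at least 2 litters for the Eed iKO comparison.

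All 4 genes were higher in every telogen library than in every anagen library, which is the property they were chosen for, and these values are given without a test. Cck was listed at 0, 0 and 1.19 normalized counts in the 3 anagen libraries and at 218, 358 and 277 in the 3 telogen libraries. Sncg was listed at 3.2, 2.68 and 0 in anagen and at 82.2, 212 and 113 in telogen. Both genes were thus at or near 0 in anagen. Grik1 had 28.6, 17.8 and 25.5 normalized counts in anagen and 667, 893 and 600 in telogen, with means of 24.0 ± 5.53 and 720 ± 154 (SD, n = 3 each), a ratio of 30.0. Fcgbp had 395, 518 and 559 in anagen and 5810, 6235 and 6788 in telogen, with means of 491 ± 85.4 and 6278 ± 490 (SD, n = 3 each), a ratio of 12.8. Fcgbp was therefore not restricted to telogen, since its anagen values lay in the middle of the range of all genes. Fewer cells that express a gene and less of its RNA per cell cannot be told apart in these bulk libraries.

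**Figure D1:**
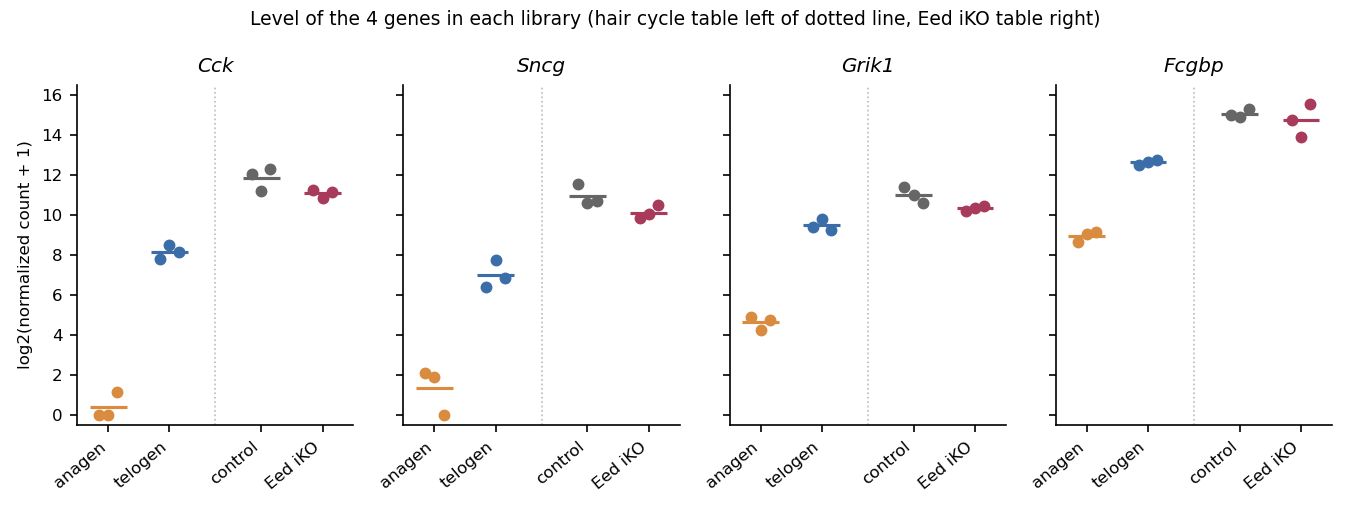
Level of each gene as log2(normalized count + 1) in each of the 12 libraries. Points are libraries in replicate order, bars are group means, and the dotted line separates the 2 tables, which were normalized separately and are not comparable across it. In all 4 genes the telogen points lie above the anagen points, and Cck has 2 anagen points at 0.

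The difference between telogen and anagen in mean log2(normalized count + 1) was 7.75 for Cck, 5.67 for Sncg, 4.86 for Grik1 and 3.69 for Fcgbp. Sorted from the highest difference down, these were places 1, 3, 5 and 20 of the 13457 genes kept by a filter on low values. Places 2 and 4 belonged to Ccl27b (5.92) and Hoxd4 (5.46), and places 19 and 21 to Shcbp1l (3.70) and Ifitm6 (3.67). Across all genes tested, 11.6% passed a Benjamini-Hochberg adjusted p under 0.05 and 4.35% did so with a higher level in telogen. Every telogen library was above every anagen library for 15.2% of all genes. The size of the 2 highest differences depended on the value added before taking logs, since it was 10.2 for Cck and 7.01 for Sncg with 0.1 in place of 1.

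**Figure D2:**
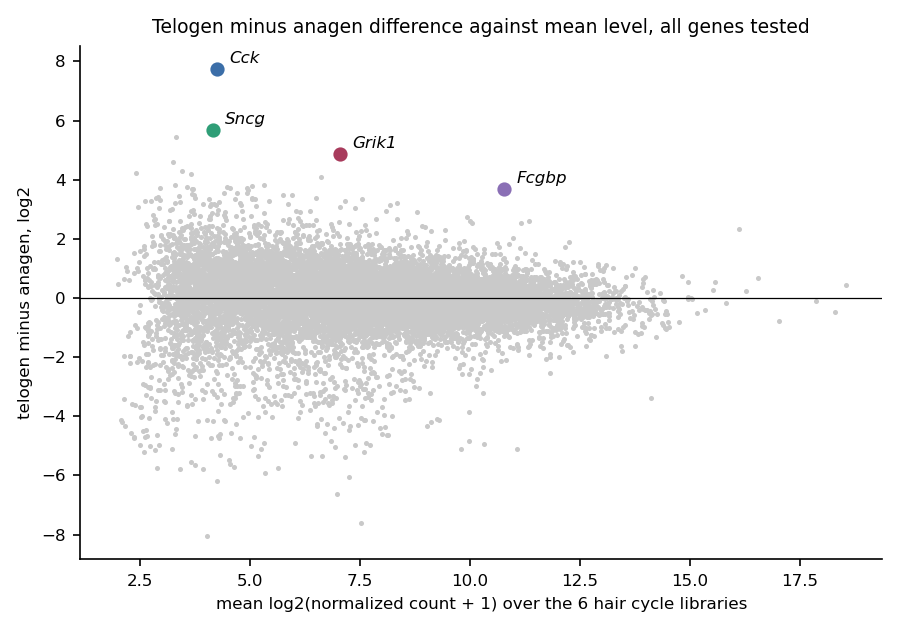
Difference between telogen and anagen (log2) against the mean of log2(normalized count + 1) over the 6 hair cycle libraries, for the 13457 genes tested in grey and the 4 genes in colour. Cck and Sncg lie at a low mean level with differences of 7.75 and 5.67, and Fcgbp lies at the highest mean level of the 4 with a difference of 3.69.

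The telogen libraries differed in how much of these genes they held. Telogen replicate 2 was the highest of the 3 for Cck, Sncg and Grik1, and telogen replicate 3 for Fcgbp. The coefficient of variation was 50.1% for Sncg, 24.7% for Cck, 21.4% for Grik1 and 7.81% for Fcgbp. With telogen replicate 1 left out, the differences were 7.93 for Cck, 5.97 for Sncg, 4.90 for Grik1 and 3.74 for Fcgbp. Libraries left out in turn moved Sncg the most, from 5.01 without anagen replicate 3, the library in which it was listed at 0, to 6.04 without anagen replicate 1.

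Divided by transcript length, the order of the genes in telogen was Fcgbp, Cck, Grik1 and Sncg. Fcgbp had 733 to 856 normalized counts per kilobase in telogen, above the 273 to 448 of Cck, which was in turn above the 164 to 244 of Grik1. Sncg, at 96.4 to 249, overlapped Grik1 and did not differ from it beyond the spread. Among 17777 genes ranked per kilobase in both tables, the telogen libraries placed Fcgbp at percentiles 95.2 to 96.7, Cck at 85.4 to 90.6, Grik1 at 76.6 to 82.4 and Sncg at 67.2 to 82.7. In anagen the same genes stood at percentiles 54.8 to 60.8, 10.0 to 21.1, 29.0 to 33.3 and 12.7 to 27.0. Relative to the other genes of its library, Cck thus went from at most percentile 21.1 to at least percentile 85.4.

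The day 70 control libraries gave another order. Per kilobase, Cck had 2892 to 6276 normalized counts and Fcgbp 3788 to 5084, ranges that overlap, while Sncg had 1786 to 3427 and Grik1 417 to 739. Grik1 was below the other 3 genes in every control library. Their percentiles were 96.6 to 98.4 for Cck, 97.5 to 98 for Fcgbp, 93.6 to 97.1 for Sncg and 68.6 to 80.5 for Grik1. Within a library, a ratio of genes does not depend on the scaling where every gene is divided by the same constant. For the hair cycle table the exact scaling is not given, so its ratios may depend on it. The ratio of Cck to Grik1 per kilobase was 1.5, 1.84 and 2.11 in the telogen libraries and 6.97, 5.17 and 15.1 in the control libraries. The ratio of Sncg to Grik1 was 0.53, 1.02 and 0.805 in telogen and 4.64, 3.19 and 4.54 in control. These tables differ in the age of the mice, were made separately and may differ in the kind of scaling. The part of each in these ratios cannot be told apart. The short transcripts of Cck and Sncg, against the long one of Grik1, are a further difference whose part was not tested.

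Next, the 4 genes were read in the comparison that was not used to choose them, Eed iKO against control at day 70. All 4 had a lower mean in the libraries labelled Eed iKO, and none passed an adjusted p under 0.05. Only 0.0267% of the genes tested in this comparison did, 4 of 15008, with 0.00666% lower in Eed iKO, so that the absence of a call is what most genes showed. At an unadjusted p under 0.05 by limma, 3 of the 4 genes were lower, Cck, Sncg and Grik1, where 6.33% of all genes were lower at that threshold. The groups did not overlap, with Eed iKO below, for 2 of the 4, Sncg and Grik1, against 10.0% of all genes.

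Cck had 4116, 2310 and 5014 normalized counts in control replicates 1 to 3 and 2366, 1822 and 2263 in Eed iKO replicates 1 to 3. Control replicate 2 lay within the Eed iKO range, so the groups overlapped by that library. The means were 3813 ± 1377 and 2150 ± 289 (SD, n = 3 each), a log2 difference of -0.76 (95% interval -1.33 to -0.19, SE 0.26, adjusted p = 0.208, limma). The adjusted p from the recovered reads, of which Cck had 1372 to 5932 per library, was 0.0375 by DESeq2 and 0.18 by edgeR.

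Grik1 and Sncg, the kainate receptor subunit and the synuclein, separated the groups completely. Grik1 had 2700, 2044 and 1525 normalized counts in control and 1141, 1289 and 1398 in Eed iKO, means of 2090 ± 589 and 1276 ± 129 (SD, n = 3 each). Its log2 difference was -0.68 (95% interval -1.16 to -0.19, SE 0.22, adjusted p = 0.191, limma). Sncg had 2920, 1522 and 1614 in control and 905, 1033 and 1422 in Eed iKO, means of 2019 ± 782 and 1120 ± 269 (SD, n = 3 each). Its log2 difference was -0.81 (95% interval -1.41 to -0.21, SE 0.27, adjusted p = 0.207, limma). In both genes every Eed iKO library was below every control library, with gaps between the nearest libraries that were small beside the spread within control. Without control replicate 1, the highest control library for both, the differences were -0.47 for Grik1 and -0.51 for Sncg.

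Fcgbp, the secreted Fc binding protein, behaved less evenly. It had 32142, 30034 and 40307 normalized counts in control and 27209, 15167 and 46642 in Eed iKO. The highest and the lowest of the 6 values were both Eed iKO libraries. The means were 34161 ± 5426 and 29673 ± 15881 (SD, n = 3 each), and the log2 difference was -0.34 (95% interval -1.05 to 0.37, SE 0.32, adjusted p = 0.668, limma). It was 0.07 without Eed iKO replicate 2, so its sign rests on that library.

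**Figure D3:**
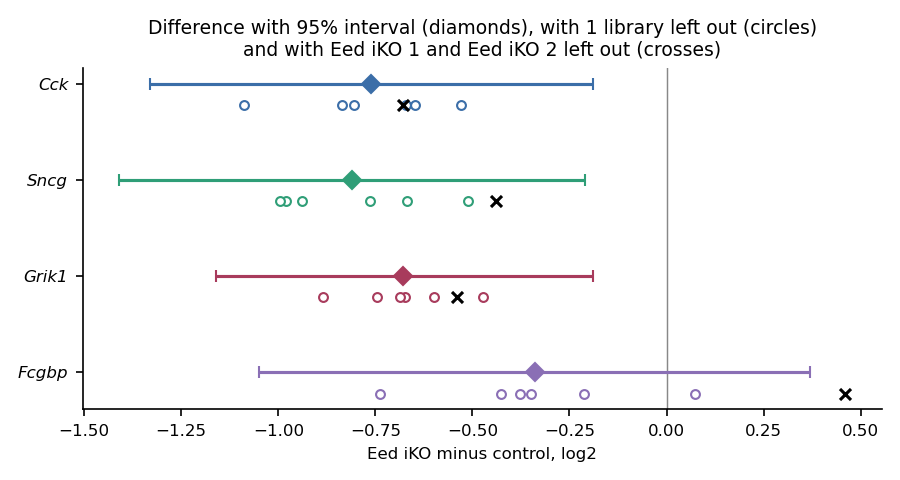
Eed iKO minus control difference (log2) of each gene. Diamonds with bars are the limma estimate and its 95% interval, circles the estimate with 1 library left out, and crosses the estimate with Eed iKO replicates 1 and 2 left out. For Cck, Sncg and Grik1 all circles and crosses lie below 0, and for Fcgbp 1 circle (0.07) and the cross (0.46) lie above it.

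Libraries of the Eed iKO group also differed in proliferation. Mki67, which marks cycling cells, had 639, 2543 and 928 normalized counts in control and 6125, 6301 and 609 in Eed iKO. The sum of 5 proliferation genes ran from 1393 to 3789 in control and from 1066 to 10258 in Eed iKO, so replicates 1 and 2 stood above control and replicate 3 did not. In the hair cycle table all 5 of these genes were lower in telogen, with sums of 613 to 804 against 17046 to 28320 in anagen. Eed iKO replicate 3, at 609 for Mki67, had 2263 normalized counts of Cck against 2310 in the lowest control library, 1422 of Sncg against 1522, 1398 of Grik1 against 1525, and more Fcgbp (46642) than any control library. The part of proliferation in the differences of the 4 genes was not tested. With Eed iKO replicates 1 and 2 left out, a setting added after the data were seen, the differences were -0.68 for Cck, -0.44 for Sncg, -0.54 for Grik1 and 0.46 for Fcgbp. That fit has a lone Eed iKO library, taken to vary like the control group, and the adjusted p was 0.9 for Cck, Grik1 and Fcgbp and 0.931 for Sncg.

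**Figure D4:**
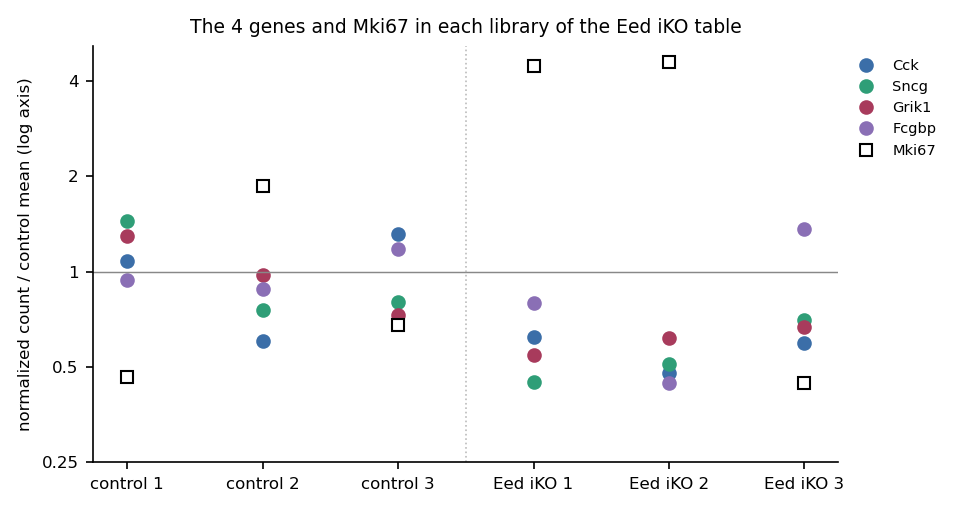
Normalized count of the 4 genes (filled circles) and of Mki67 (open squares) in each library of the Eed iKO table, divided by the mean of the 3 control libraries, on a log axis. Mki67 lies above 4 in Eed iKO replicates 1 and 2 and below 1 in replicate 3, whereas Cck, Sncg and Grik1 lie below 1 in all 3 Eed iKO libraries.

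Genes called higher in telogen leaned the same way in this comparison. Leaving out the 4 genes, 578 of them were tested in both tables, and 67.1% had a lower mean in Eed iKO, with a median log2 difference of -0.13 and quartiles of -0.37 and 0.08. Over all 13358 genes tested in both tables, 49.3% were lower and the median was 0.01. The groups did not overlap, with Eed iKO below, for 18.7% of the 578 genes and for 10.3% of the 13358. Of the 578 genes, 38 had a difference at or below that of Cck. Cck, Sncg and Grik1 thus lay below the lower quartile of these 578 genes, and Fcgbp lay between the lower quartile and the median. Among the 20 highest telogen differences, 15 genes besides the 4 were tested in both tables. Of these 15, 86.7% had a lower mean in Eed iKO, with a median of -0.32 and quartiles of -0.85 and -0.07. All 4 genes lay between that lower quartile and median, and 4 of the 15 were at or below Cck. No test of these shares was made.

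The other genes of the pathways of the 4 proteins were then examined, 90 genes in all. Of these, 40 passed the filter on low values in the hair cycle table, and 3 were called higher in telogen and 0 lower, or 7.5%. They were Vamp2, Grik5 and Muc6. Of all genes 4.35% were called higher in telogen and 11.6% in either direction, and the share of the lists was not tested against them. For Eed iKO, 54 passed the filter and 0 were called by limma, with 6 (3 of them lower) at an unadjusted p under 0.05, where 14.7% of all genes were. DESeq2 and edgeR calls were not counted for these lists.

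Around Cck, the other ligand and both receptors were low in all 6 hair cycle libraries. The receptor gene Cckar had 1.08 to 8.14 normalized counts over the 6 hair cycle libraries, Cckbr had 0 to 5.05, and Gast, which encodes gastrin, was listed at 0 in all. At day 70 Cckbr had 65.9, 17.3 and 29.0 in control and 8.60, 10.6 and 26.7 in Eed iKO, which overlap. Of 14 genes for the processing and storage of neuropeptides, 6 passed the filter in the hair cycle table and none was called. Cpe, a carboxypeptidase that trims peptide precursors, had means of 3479 in anagen and 4620 in telogen (log2 difference 0.38, adjusted p = 0.295, limma), and Pam, which amidates peptides, had 428 and 586 (0.39, adjusted p = 0.448, limma). The granule genes Pcsk1, Pcsk1n and Scg2 were listed at 0 in all 6 libraries, and Chga had 2.40 to 9.58 in anagen and 16.4 to 18.9 in telogen (1.53, adjusted p = 0.205, limma).

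Around Sncg, the sister gene Sncb was listed at 0 in each of the 6 hair cycle libraries. Vamp2, which encodes a vesicle SNARE protein that synucleins bind, had 274, 333 and 503 in anagen and 769, 996 and 1091 in telogen (log2 difference 1.39, SE 0.28, adjusted p = 0.00928, limma). Its groups did not overlap, and without anagen replicate 1 the adjusted p rose to 0.0563. Nor did the groups overlap in the Eed iKO table for Vamp2, at 6446 to 7507 in control and 5118 to 5556 in Eed iKO (-0.39, adjusted p = 0.207, limma).

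Grik1 was the highest of the kainate receptor genes in telogen. Its mean of 197 normalized counts per kilobase there compares with 26.3 for Grik5, 7.10 for Grik4, 6.71 for Grik2, 5.40 for Neto2 and 2.71 for Grik3, and Neto1 was listed at 0. In anagen the means per kilobase were 6.56 for Grik1, 6.77 for Grik4 and 6.53 for Grik5. The anagen mean of Neto2, 8.72, was carried by replicate 1, with 102 normalized counts against 26.0 and 18.5 in the other anagen libraries. Grik5, whose product GluK5 forms channels only together with subunits such as GluK1, had 10.3, 27.5 and 35.9 normalized counts in anagen and 100, 109 and 87.7 in telogen (log2 difference 2.13, SE 0.55, adjusted p = 0.0308, limma). Its groups did not overlap, although the call was lost when any 1 library other than anagen replicate 3 was left out (adjusted p = 0.0591 to 0.115). Between Eed iKO and control, Grik5 was at 680, 1095 and 909 in control and 491, 345 and 625 in Eed iKO, without overlap (-0.89, SE 0.29, adjusted p = 0.191, limma). Grik2 had 14.6 to 36.0 in anagen and 39.5 to 102 in telogen (1.28, adjusted p = 0.18, limma). None of the 8 other ionotropic glutamate receptor genes that passed the filter was called in the hair cycle table, nor any of the 9 genes of glutamate transport and synthesis.

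Around Fcgbp, the mucin gene Muc6 had 28.6, 52.5 and 53.8 normalized counts in anagen and 235, 112 and 259 in telogen (log2 difference 2.11, SE 0.47, adjusted p = 0.0153, limma), without overlap. This call was lost without anagen replicate 1 (adjusted p = 0.0722) or telogen replicate 3 (0.0567). At day 70 Muc6 had means of 326 in control and 318 in Eed iKO (0.01, adjusted p = 0.993, limma). The trefoil factor genes Tff1, Tff2 and Tff3 and the mucin genes Muc4, Muc5ac and Muc16 were listed at 0 in all 6 hair cycle libraries. Fcgrt, which encodes the neonatal Fc receptor for IgG, had 87.1 to 107 in anagen and 28.3 to 102 in telogen (-0.69, adjusted p = 0.415, limma). At 6278 normalized counts in telogen, Fcgbp was above every one of these genes.

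**Figure D5:**
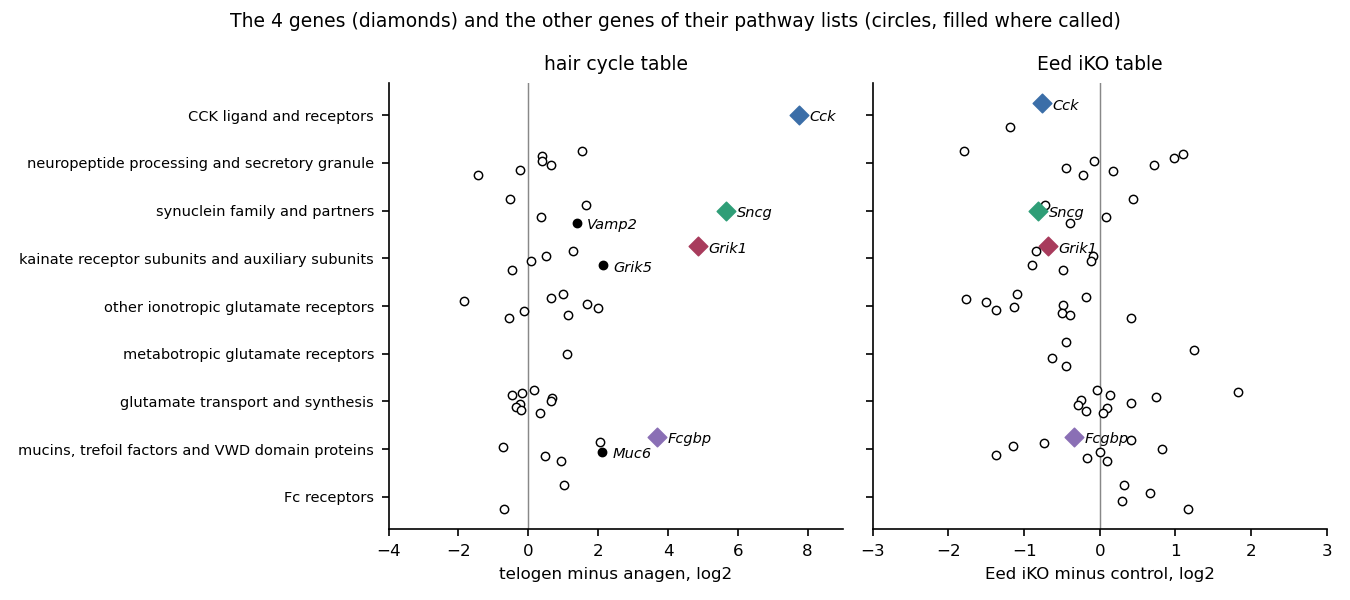
Differences (log2) of the 4 genes (diamonds) and of the other measured genes of their pathway lists (circles, filled and named where the adjusted p was under 0.05) in the hair cycle table (left) and the Eed iKO table (right), 1 row per list. On the left the diamonds lie at 3.69 to 7.75, to the right of all circles, which follows from how the 4 genes were chosen. On the right no circle is filled.

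Cck and Fcgbp are known outside the follicle from other cells, so markers of cell types that could be in the sort were read beside them. Of 10 Merkel cell markers, the defining genes Krt20, Atoh1 and Sox2 were listed at 0 in all 6 hair cycle libraries and were not analysed here in the Eed iKO table. The summed level of the list was 152 to 192 in anagen and 199 to 244 in telogen, which do not overlap, and 296 to 413 in control and 209 to 259 in Eed iKO, which do not overlap either. Rab3c and Piezo2 had the highest means of the list in every group, and of the 5 list genes that passed the filter in each table none was called. Since 4202 genes were listed at 0 in all 6 hair cycle libraries and their depth is unknown, such zeros may not be measurements. The part of this list in the values of the 4 genes was not tested. The 8 neuron markers summed to 6.91 to 13.7 in anagen and 6.52 to 15.9 in telogen, and to 19.4 to 67.2 in control and 26.6 to 71.2 in Eed iKO, with overlap in both tables. The adipocyte markers summed to at most 28.6 in the hair cycle libraries. In telogen the 4 genes ran from 82.2 to 212 for Sncg, the lowest, to 5810 to 6788 for Fcgbp, the highest. Among the markers of the sort itself, Cd34 was higher in telogen, at 6433 to 9159 against 2955 to 4144 in anagen (log2 difference 1.21, adjusted p = 0.00382, limma), and Itga6 was lower (-0.97, adjusted p = 0.0144, limma). Between Eed iKO and control none of the 11 HFSC markers was called. With Eed iKO below, 10.0% of all genes had groups that did not overlap, and the share with Eed iKO above is not given here. Of the 11 markers, 7 had groups that did not overlap, in either direction. Krt14 (0.82, adjusted p = 0.104, limma), Itga6 (0.41, adjusted p = 0.207), Krt15 (0.23) and Lhx2 (0.28) had the higher values in Eed iKO, and Nfatc1 (-0.39, adjusted p = 0.259), Tcf7l1 (-0.47, adjusted p = 0.231) and Lgr5 (-0.24) the lower. Cd34 had 37765 to 47502 in control and 31535 to 38699 in Eed iKO (-0.33, adjusted p = 0.34, limma). The melanocyte list summed to 1410 to 1488 in anagen and 2882 to 3285 in telogen, where Mitf was higher (1.85, adjusted p = 0.000254, limma) and Dct lower (-2.51, adjusted p = 0.00187, limma). Of the fibroblast list, which summed to 470 to 628 in anagen and 316 to 649 in telogen, Col1a1 and Dcn were called lower in telogen, whereas Col1a2 had 154 to 229 in anagen and 233 to 600 in telogen, without overlap (1.0, adjusted p = 0.108, limma). Col1a1 was also without overlap at day 70, at 248 to 782 in control and 92.5 to 238 in Eed iKO (-1.48, adjusted p = 0.228, limma). The interfollicular epidermis list summed to 7769 to 39749 in control and 4474 to 57525 in Eed iKO, with overlap, and none of its 5 genes was called. Krt10, the highest of that list, had 7484, 5443 and 26841 in control and 10738, 3429 and 45520 in Eed iKO. Replicate 3 was thus the highest for Krt10 in each group, as it was for Fcgbp. What part these differences have in those of the 4 genes was not tested.

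Of the genes next to the 4 on their chromosomes, none that was tested was called in either table. Trak1, 14.9 kb from Cck, had a difference between telogen and anagen of 0.21 (adjusted p = 0.602, limma), and Lyzl4 on the other side was listed at 0 in all 6 libraries. Fam25c, 14.8 kb from Sncg, had a difference of 0.64 (adjusted p = 0.251, limma). Mmrn2, which starts 0.7 kb from Sncg, had at most 13.9 normalized counts in the hair cycle libraries. Bach1, 162.6 kb from Grik1, had 0.40 (adjusted p = 0.229, limma), and Cldn17 was listed at 0. Psmc4 and 9530053A07Rik, on either side of Fcgbp, had -0.34 (adjusted p = 0.392, limma) and -0.16 (adjusted p = 0.84, limma). In the Eed iKO table the largest neighbour difference was that of Fam25c, in the opposite direction to Sncg, at 882 to 1548 in control and 2671 to 2906 in Eed iKO (1.28, adjusted p = 0.0817, limma).

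Genes whose pattern over the libraries was most like each of the 4 were ranked by the mean of 2 Pearson correlations of log2(normalized count + 1), over the 6 hair cycle and the 6 Eed iKO table libraries, among 13361 genes. All genes compared share the groups, depth and scaling of the same 12 libraries, and these values carry no test. For Cck the nearest were Kcnma1 (0.967), which encodes a calcium-activated potassium channel, Vangl2 (0.954), a planar cell polarity gene, and Enc1 (0.952). For Sncg they were Prom1 (0.963), Tmtc4 (0.961) and Nod2 (0.959), with Grik1 itself in place 4 (0.944). For Grik1 they were Sik2 (0.968), a kinase gene, Nod2 (0.962), which encodes an innate immune sensor, and Sertad4 (0.958), with Sncg in place 9. For Fcgbp they were Fam120b (0.971), Per3 (0.969), a circadian clock gene, and Ermard (0.968). The remaining pairs among the 4 genes had mean correlations of 0.607 (Grik1 and Fcgbp) to 0.812 (Cck and Sncg). Each mean includes the hair cycle libraries on which the 4 genes were chosen. All pairs of the 4 had 0.944 to 0.996 there, which the choice made high in advance. The places of Grik1 and Sncg in each other's lists are raised by it too. Over the Eed iKO table libraries alone Sncg and Grik1 had a correlation of 0.924, and Grik1 and Fcgbp one of 0.228.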

How the data were processed

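The authors aligned paired-end reads to mouse transcripts (Gencode vM20, mm10 in the submitters' processing notes) with kallisto (version 0.42.5) and analysed protein-coding genes with DESeq2. The deposited signal values, termed normalized counts, are gene counts scaled between libraries by the authors with DESeq2. For the hair cycle, the exact scaling is not given in the sources used here. The deposited log2 fold changes, their standard errors, p-values and test scores of the authors' own comparisons were not used. Libraries were made from total RNA with a kit that amplifies cDNA, and strand in the counting is not given in the sources used here.

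From the normalized counts, log2(value + 1) was tested with limma (version 3.58.1, R version 4.3.3) with an intensity trend, separately in each table of 3 against 3 libraries, over 15008 (Eed iKO) and 13457 (hair cycle) genes that passed filterByExpr of edgeR (version 4.0.16) at a count minimum of 10. Genes were called at a Benjamini-Hochberg adjusted p under 0.05 over all genes tested. Fold changes on this scale understate those of low genes. For Eed iKO, 100% of values were whole multiples of 1 constant per library (within 0.05 reads), and the recovered reads were used for edgeR and DESeq2 (version 1.42.0) as alternatives. Only 9.3% to 21.0% of the hair cycle values were, so these are not whole reads divided by 1 constant, and their depth is unknown. The fits were tested on simulated data.

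The 4 genes, the pathway and marker lists and the tests were chosen with earlier results of these data known. Genes are named by a rule: the 4 genes, list genes that were called or whose role is compared with theirs, the nearest protein-coding gene on each side, and the 3 genes most like each. Genes at neighbouring places of the telogen difference are named outside the rule, after their values were seen. A few genes of the lists are not reported here and were left out of the list counts. Levels per kilobase use the longest coding transcript of GENCODE vM21. Of the Eed iKO symbols, 25 had become dates and were restored by identifier. Alternatives were a pseudocount of 0.1, no filter, TMM scaling, no intensity trend, a block for the replicate number, single libraries left out, count tests, and the thresholds of the methods (log2 fold change beyond 1.5 or 2 with an unadjusted p under 0.05). Eed iKO replicates 1 and 2 left out together was added after seeing the data.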

Additional observations from a re-analysis of the deposited data

How the results depend on the processing

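The number of genes called in the Eed iKO comparison, 4, was 2 without an intensity trend, 1 to 188 with each library left out in turn (188 without Eed iKO replicate 3), 1 without Eed iKO replicates 1 and 2, 673 with DESeq2 on recovered reads and 263 at the methods' own thresholds. Between telogen and anagen 1556 genes were called, with 842 without an intensity trend, 590 to 1534 with each library left out (590, 675 and 826 without anagen replicates 1, 2 and 3) and 686 at the thresholds of the methods. Cck passed an adjusted p under 0.05 with DESeq2 on recovered reads (log2 difference -0.83, adjusted p = 0.0375), whereas Sncg (0.0551), Grik1 (0.0534) and Fcgbp (0.783) did not. A pseudocount of 0.1, no filter, TMM scaling, no intensity trend and edgeR on recovered reads each kept the direction of all 4 genes in the Eed iKO comparison and called none. With each library left out in turn the Eed iKO difference ran from -1.09 to -0.53 for Cck, -1.0 to -0.51 for Sncg, -0.88 to -0.47 for Grik1 and -0.74 to 0.07 for Fcgbp, which was positive without Eed iKO replicate 2 (0.07) and without Eed iKO replicates 1 and 2 (0.46). The telogen differences of Cck and Sncg were 10.2 and 7.01 with a pseudocount of 0.1, and the cause lies in the anagen values near 0.

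The replicate numbers of the labels were checked as pairs. Once group means were taken off, libraries with the same number correlated at 0.039, 0.068 and 0.193 in the Eed iKO table. The highest, 0.193, was that of replicate 3. In the hair cycle table the values were -0.035, -0.071 and -0.029. The labels name no litter or batch, and whether libraries with the same number share one was not tested. With the replicate block, 424 genes were called in the Eed iKO comparison, and 1224 in the hair cycle. The difference of Cck, -0.76, then had an adjusted p of 0.0349 by limma, against 0.101 for Sncg, 0.105 for Grik1 and 0.328 for Fcgbp.

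Depth limits the hair cycle values near 0, where a difference between anagen libraries cannot be read. With 3 libraries a group, the intervals of the Eed iKO differences of Cck, Sncg and Grik1 have bounds from -1.41 to -0.19.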
